A study of Mus musculus with 4 samples.

Results

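The genes described here are those of major histocompatibility complex (MHC) class II antigen presentation and their regulators, 9 of the 21900 protein-coding genes of the RefSeq table of GRCm38.p6. They were chosen by name for their function and with measured covered lengths in view: the class II chain genes H2-Aa, H2-Ab1 and H2-Eb1, the peptide editor genes H2-DMa and H2-DMb1, the invariant chain gene Cd74, the regulators Ciita and Rfx5, and the ubiquitin ligase gene Marchf1. The lengths of H2-Ab1, Cd74, Marchf1 and H2-DMa under peaks in both libraries were known when they were selected, so all lengths are given as a description and without a test. The mark is H3K79me2, histone H3 dimethylated on lysine 79, and it was mapped by ChIP-seq (sequencing of immunoprecipitated chromatin) in dendritic cells grown from the bone marrow of C57BL/6J mice. The cells received PBS, for which no time is given, or 18 mM lysine for 6 h, and both groups were grown in the same serum-containing RPMI medium. For each treatment 1 library of H3K79me2 and 1 of input DNA were made, and the broad and gapped peak lists of the H3K79me2 libraries were used. With 1 library per condition there is no spread between replicates, and a difference between the treatments and a difference between the libraries cannot be told apart.

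MHC class II molecules are dimers of an alpha and a beta chain that carry peptides from endosomes to the cell surface, where helper T cells read them. The invariant chain Cd74 holds new dimers and guides them to endosomes, and H2-DM exchanges its last fragment for other peptides. Transcription of these genes depends on the coactivator Ciita, which is recruited to class II promoters by a complex that holds Rfx5, and Marchf1 tags the beta chain in immature dendritic cells for removal from the surface. H3K79me2 is deposited by Dot1l over the beginning of transcribed genes. A gene without a called peak can carry the mark below the threshold of the caller.

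The PBS library yielded a list of 11926 peaks and the lysine library 9805, with 0.796 of the covered length. The files give no read counts, so the depth is unknown and its part in the differences below was not tested. The fold over background and the −log10 q are values the authors deposited for each peak, and serve only to place a peak within its own list, where the median fold was 4.52 in PBS and 4.48 in lysine and the median −log10 q 4.03 and 3.85. Peaks lay on 6 of 12 dendritic cell markers in PBS and on 5 in lysine, where 36.9% and 34% of all protein-coding genes had a peak. Among them were Itgax and Flt3 in both libraries, while Ccr7, Cd209a, Batf3, Irf4, Clec9a and Dpp4 had none in either. Peaks lay on 6 and 3 of 9 markers of macrophages and monocytes (5187 and 3016 bp), cells that also carry class II molecules. Of 8 B cell markers none had a peak in PBS and only Blnk had a peak in lysine (314 bp). Neutrophil markers had a peak on 2 of 7 genes in each library, S100a8 and Ltf in PBS and Camp and Ltf in lysine. Markers of T and NK cells had a peak on 2 of 7 genes, Cd3d and Klrb1c, in both libraries. Peaks on the dendritic cell markers summed to 5255 bp in PBS against 2941 bp in lysine, and the part of the cell mixture in the results was not tested.

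A gene was taken with 2 kb either side, and its covered length is the number of bp of that window under broad peaks. A broad peak joins stretches that pass a looser limit, and its narrow blocks, listed in the gapped file, are the parts that pass the stricter limit. The lower and upper end of a gene are those of its coordinates, since the gene table gives no strand. H2-Aa and H2-DMb1 were touched by no peak in either library, as were 58.6% of all protein-coding genes. In PBS 7 of 9 members had a peak, where 36.9% of all protein-coding genes had a peak, and in lysine 4 of 9, where 34% did. Peaks in both libraries were found on 4 members (29.5% of all genes), peaks in PBS alone on 3, H2-Ab1, H2-Eb1 and Ciita (7.42%), and a peak in lysine alone on none of them (4.47%). The members together carried 12 PBS peaks over 12432 bp and 7 lysine peaks over 6813 bp, a ratio of 0.548. Covered length was shorter in lysine in 5 members (24.5% of all genes) and longer in 2 (16.8%), and by at least 500 bp it was shorter in 3 (5.86%) and longer in 1 (2.87%). From PBS to lysine the median change in covered length was -316 bp over the 7 members with a peak and -64 bp over the 9070 genes with a peak in either library. The lengths of H2-Ab1, Cd74, Marchf1 and H2-DMa were known when they were selected. The counts and medians therefore describe the members, and whether they exceed the shares of all genes was not tested.

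**Figure D1:**
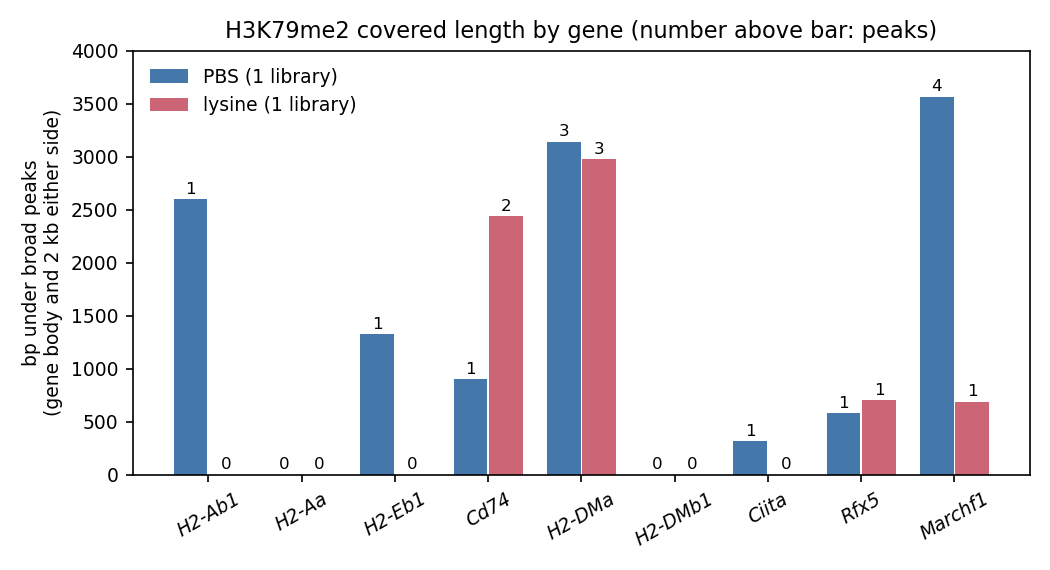
Bars give the bp under broad H3K79me2 peaks (vertical axis) for each of the 9 genes with 2 kb either side, in the PBS library (blue) and the lysine library (red), with the number of peaks above each bar. H2-Ab1 and Marchf1 stand highest above their lysine bars (2602 against 0 bp and 3566 against 689 bp), and Cd74 is the gene with the larger lysine bar by over 500 bp (2441 against 900 bp).

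The class II chain genes lie together on chromosome 17, and in PBS the mark was called at the lower end of H2-Ab1 and of H2-Eb1. H2-Ab1, the beta chain of the I-A molecule (chr17:34263227-34269418), had 1 PBS peak of 2602 bp at chr17:34263067-34265668, from 160 bp outside the gene into its body. No lysine peak touched its window, and the nearest lay 5287 bp from the gene. The peak was wider than 99.7% of the PBS list and had fold 3.82 and −log10 q 2.42, above only 20.1% and 18.7% of that list. Its gapped entry had a single narrow block of 343 bp at chr17:34264131-34264473, which made up 13.2% of the region. H2-Ab1 thus carried a long and weak region in PBS, in which most of the length passed only the looser limit. Among the 9070 genes with a peak, 19 had a larger shortfall in lysine than H2-Ab1, and 11 a larger shortfall than Marchf1. The lengths of both were known when they were selected, so these ranks only describe them.

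H2-Eb1, the beta chain of the I-E molecule (chr17:34305867-34316674), had a PBS peak of 1325 bp at chr17:34304679-34306003 and no lysine peak, the nearest being 9360 bp away. C57BL/6 mice lack a working H2-Ea gene, annotated here as a pseudogene, so that no complete I-E dimer is made from the H2-Eb1 chain. The region ran from 1188 bp before the annotated start to 136 bp after it, with fold 4.40 and −log10 q 3.75, near the middle of the PBS list (percentiles 45.1 and 45.5). Its narrow block of 373 bp lay from 1188 to 816 bp before the start, so the start itself was under the looser part of the region. H2-Aa, the alpha chain of I-A (chr17:34282744-34287823), had no peak in its window in either library, with the nearest peak 8259 bp away in PBS and 5628 bp away in lysine. The 2 chains of I-A thus differed in the PBS list, where the beta chain gene had a peak and the alpha chain gene had none.

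Class II promoters are known for an X box, bound by the complex of Rfx5, followed by a Y box, bound by NF-Y. The promoter windows of RefSeq (GRCm38.p6) run from 250 bases before an annotated start to 50 after it, and 6 of the 9 members matched, with 9 windows in all. H2-Ab1, Cd74 and Ciita did not match. The 150 bases before the start are shown for H2-Eb1 (chr17:34305717-34305866, plus strand), which lay under a PBS peak, and for H2-Aa (chr17:34287824-34287973, minus strand) and H2-DMb1 (chr17:34153041-34153190, plus strand), which lay under no peak. Each is written 5′ to 3′ in lower case with matches to AACNGATG, a short form of the X box, and to ATTGG or its complement CCAAT, the core of the Y box, in capitals.
H2-Eb1: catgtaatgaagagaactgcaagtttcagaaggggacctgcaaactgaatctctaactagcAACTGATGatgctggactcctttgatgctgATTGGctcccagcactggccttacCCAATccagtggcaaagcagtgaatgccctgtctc
H2-Aa: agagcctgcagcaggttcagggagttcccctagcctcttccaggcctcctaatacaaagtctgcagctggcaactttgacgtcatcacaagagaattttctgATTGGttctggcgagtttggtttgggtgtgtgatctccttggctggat
H2-DMb1: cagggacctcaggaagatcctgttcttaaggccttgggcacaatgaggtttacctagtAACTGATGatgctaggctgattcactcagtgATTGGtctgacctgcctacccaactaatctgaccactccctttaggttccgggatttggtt

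In H2-Eb1 the X box letters stood at -89 to -82 and ATTGG at -59 to -55, counted with the annotated start as 0, with 22 bases between them. In H2-DMb1 they stood at -92 to -85 and -61 to -57, with 23 bases between. H2-Aa held ATTGG at -48 to -44 and no match to the X box letters, which does not show that it lacks an X box. The X box letters with ATTGG 5 to 40 bases after them on the gene's strand occurred in 9 of 32851 promoter windows (0.0274%). Among the 9 were H2-Eb1, H2-DMb1, H2-Eb2 and H2-DMb2, with 22 or 23 bases between, and BC051142, with 23. The others were Scgb2b20, Olfr1348, Gm35444 and Fam122c, with 33, 6, 39 and 5. On either strand the X box letters alone were in 2.32% of windows and ATTGG in 37.4%. This short form was chosen after the promoters were seen. A longer and stricter form of the X box was in 0.0609% of windows and a longer but looser form in 10.9%, and of the members' windows only that of H2-DMb1 held them. Followed by the Y box 5 to 40 bases on, the stricter form was in 1 window, that of H2-DMb1, and the looser form in 78 (0.237%). Of the members' promoters with the X and Y box letters, that of H2-Eb1 had its start under a PBS peak, and neither had it under a lysine peak. Over all promoter windows the start was under a PBS peak in 17.2% and under a lysine peak in 16.1%. Whether the members differ from these shares was not tested.

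Around these genes most peaks were shared by both libraries, while those on H2-Ab1 and H2-Eb1 were in the PBS list alone. So was a peak of 1135 bp on Psmb8, a gene of class I presentation in the same stretch. From H2-Oa to Btnl2 (chr17:34092379-34369492, 277.1 kb), an interval chosen after its values were seen, the PBS list had 12 peaks over 11966 bp and the lysine list 11 peaks over 6246 bp, and 9 peaks of each list overlapped the other. A peak on the non-coding gene Gm20506, below H2-Ab1, measured 460 bp in PBS and 335 bp in lysine with 334 bp in common. A peak between H2-Aa and H2-Eb1 measured 473 bp in PBS (chr17:34296082-34296554) and 377 bp in lysine (chr17:34296131-34296507), the lysine peak lying wholly within the PBS peak. A second lysine peak of 360 bp between the same genes had no PBS partner. A peak between H2-Ea and Btnl2 measured 1680 bp in PBS and 598 bp in lysine, with 580 bp in common. The mark was thus called in the lysine library on both sides of H2-Ab1 and H2-Aa and not on them.

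**Figure D2:**
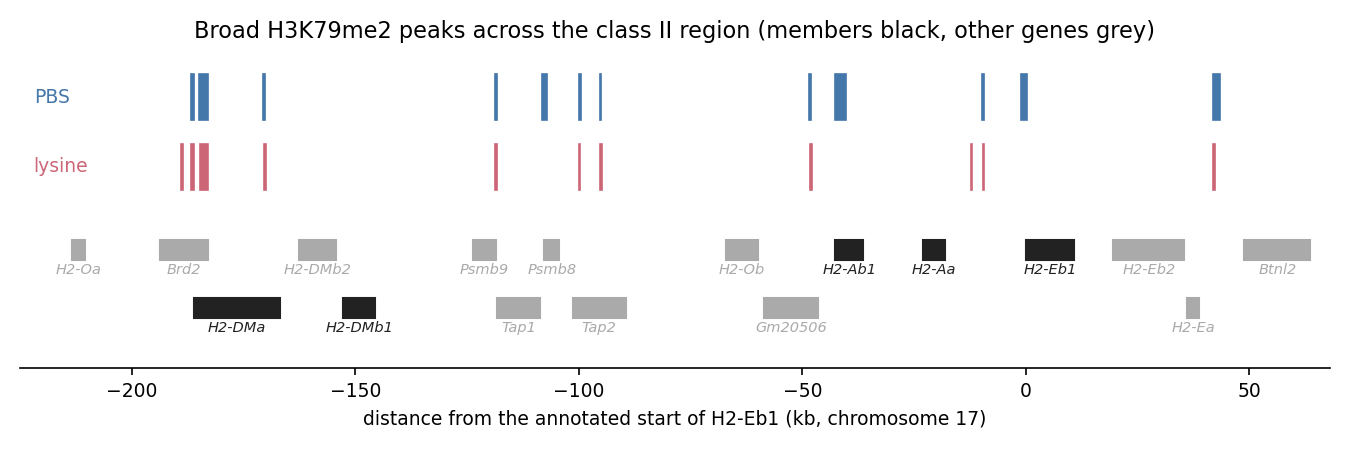
Peaks of the PBS library (blue) and the lysine library (red) are drawn to scale by distance in kb from the annotated start of H2-Eb1 on chromosome 17, above the bodies of the genes (members black, others grey). The wide PBS peaks on H2-Ab1, at the start of H2-Eb1 and on Psmb8 have no lysine counterpart. Peaks on H2-DMa, on Gm20506 and between H2-Aa and H2-Eb1 appear in both rows.

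Cd74, the invariant chain (chr18:60803849-60812652), was the member with more covered length in lysine by over 500 bp, and all of its peaks were weak. PBS had 1 peak of 900 bp at chr18:60805771-60806670, with fold 3.38, −log10 q 1.69 and no narrow block. Lysine had 2 peaks, of 828 bp at chr18:60803542-60804369 across the lower end of the gene and of 1613 bp at chr18:60805694-60807306, each with a narrow block (286 and 284 bp). The second lysine peak contained the whole PBS peak and reached 636 bp beyond its upper edge. Covered length went from 900 bp with PBS to 2441 bp with lysine, a difference of 1541 bp, and 25 genes had a larger gain. The length of Cd74 was known when it was selected, so this rank only describes it. The −log10 q of the lysine peaks, 1.78 and 1.99, was above only 7.37% and 11.9% of the lysine list, and that of the PBS peak above 3.66% of the PBS list. Covered length of Cd74 and of the class II beta chain genes differed in opposite directions between these libraries, with no Cd74 peak reaching a −log10 q of 2.

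The peptide editor H2-DM is a dimer of H2-DMa with H2-DMb1 or H2-DMb2, and peaks were called on H2-DMa alone of these. H2-DMa (chr17:34119693-34139101) had 3 peaks in each library, over 3141 bp with PBS and 2980 bp with lysine, of which 2808 bp were covered in both. The 2 lower ones also touched Brd2, a bromodomain gene whose body overlaps the annotated body of H2-DMa, and cannot be assigned to either gene. The first measured 695 bp in PBS (chr17:34119155-34119849) and 757 bp in lysine (chr17:34119058-34119814). It was among the strongest of its list in both, with a fold of 9.80 in PBS and 8.59 in lysine (percentiles 98.7 and 97.4). The second measured 1987 bp in PBS (chr17:34120976-34122962) and 1702 bp in lysine (chr17:34121104-34122805), the lysine peak lying within the PBS peak, and had 2 narrow blocks in each library. The PBS peak covered the first annotated start of H2-DMa at 34122832, and the lysine peak ended 27 bp before it. Both covered the Brd2 start at 34122607.

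The third peak lay on H2-DMa and on no other gene, and it was nearly the same in both libraries. It measured 459 bp in PBS (chr17:34135285-34135743) and 521 bp in lysine (chr17:34135298-34135818), with edges 13 and 75 bp apart. It lay 15.6 kb from the lower end of the annotated body, and 3.36 kb (PBS) and 3.28 kb (lysine) from the upper end. In fold it reached 5.82 (PBS) and 7.68 (lysine), at percentiles 80.4 and 95.2 of the lists. Without the peaks shared with Brd2, covered length of H2-DMa was 459 bp in PBS and 521 bp in lysine, so that the sign of its difference turned from -161 to 62 bp. H2-DMb1 (chr17:34153191-34160229) had no peak in its window, and the nearest was the third H2-DMa peak, 17448 bp away in PBS and 17373 bp in lysine.

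Of the 2 regulators, Rfx5 was marked alike in both libraries and Ciita had a small peak in PBS alone. Rfx5, a subunit of the complex that binds the X box (chr3:94950689-94961561), had a PBS peak of 582 bp at chr3:94953649-94954230 and a lysine peak of 703 bp at chr3:94953662-94954364. The lower edges were 13 bp apart and the upper edges 134 bp. Both were strong in their lists, with a fold of 6.88 in PBS and 6.24 in lysine (percentiles 90.8 and 86.5), and both consisted wholly of a narrow block. Each covered the annotated start at 94954108.
The 150 bases before that start (chr3:94953958-94954107, plus strand) are shown because they were under a peak in both libraries. The capitals mark CCAAT, which is ATTGG on the other strand, at -113 to -109 and at -54 to -50.
Rfx5: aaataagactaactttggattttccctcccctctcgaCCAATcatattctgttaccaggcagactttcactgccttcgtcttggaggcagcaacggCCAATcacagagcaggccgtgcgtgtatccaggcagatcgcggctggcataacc

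Ciita, the coactivator on which class II transcription depends (chr16:10480014-10531064), had 1 PBS peak of 316 bp at chr16:10486922-10487237, 6908 bp from the lower end of the gene. Its fold was 3.73 and its −log10 q 2.13, above 15.8% and 12.4% of the PBS list. The nearest lysine peak lay 11876 bp from the gene. Among the members Ciita had the shortest covered length of those with a peak, and its difference of -316 bp rests on this single weak peak.

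Marchf1, the ubiquitin ligase that lowers surface class II and Cd86 (chr8:65618009-66472841), had 4 peaks in PBS over 3566 bp and 1 in lysine over 689 bp. It is the longest member, at 854833 bp, and all of its peaks lay in its upper part, at least 724739 bp from the lower end. The peak present in both libraries was the strongest of the PBS peaks, 453 bp at chr8:66342919-66343371 with fold 6.64 and −log10 q 11.48. It lay wholly within the lysine peak of 689 bp at chr8:66342748-66343436, whose fold (5.10) and −log10 q (5.15) were nearer the middle of its list (percentiles 68.5 and 67.2). The other PBS peaks were weaker. They measured 380 bp at chr8:66385970-66386349, 1287 bp at chr8:66393114-66394400 and 1446 bp at chr8:66444190-66445635, with folds of 3.90, 3.90 and 4.12 and −log10 q from 2.51 to 2.98. Their narrow blocks made up 100, 21.4 and 32.5% of them. At a −log10 q of at least 5 the peak found in both libraries alone was left, and the difference turned from -2877 to 236 bp.

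The second PBS peak on Marchf1 covered an annotated start inside the gene at 66386301, from 331 bp before it to 48 bp after it. The 2 other annotated starts in the table, at 65618040 and 65618525 near the lower end of the gene, were under no peak in either library. The 150 bases before the inner start (chr8:66386151-66386300, plus strand) are shown since a PBS peak and no lysine peak covered them. They hold neither motif and no CG, so no letter is in capitals.
Marchf1: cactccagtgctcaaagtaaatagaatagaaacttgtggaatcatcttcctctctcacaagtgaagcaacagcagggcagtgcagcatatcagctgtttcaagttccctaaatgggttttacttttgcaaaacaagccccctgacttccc

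**Figure D3:**
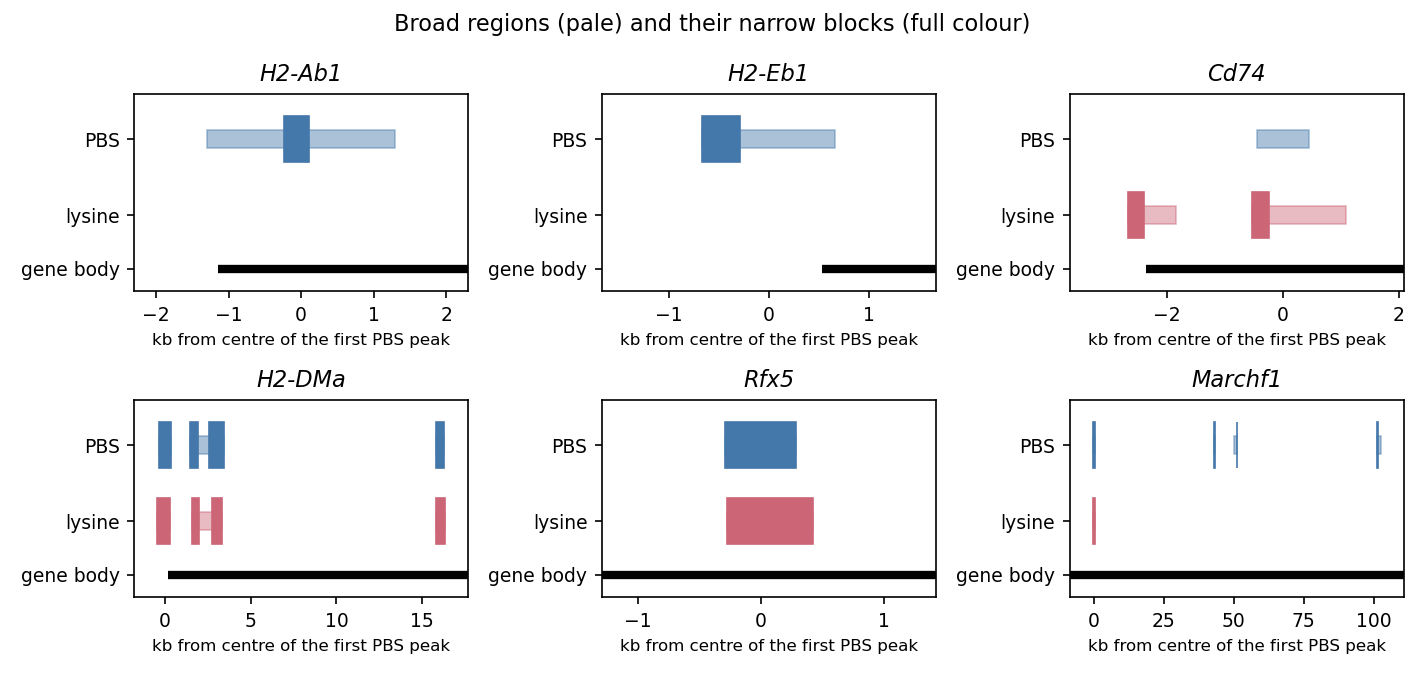
For each of 6 genes the broad regions (pale) and their narrow blocks (full colour) are drawn in the PBS and lysine libraries by distance in kb from the centre of the first PBS peak, above the gene body (black). The blocks fill the whole peaks of Rfx5 and a small share of those on H2-Ab1 (13.2%) and H2-Eb1 (28.2%), and the PBS region on Cd74 holds no block.

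The starts under peaks differed in base composition. The window of the Rfx5 start had 16 CpG sites and that of the first H2-DMa start 29, while those of H2-Eb1 and of the inner Marchf1 start had none. Over all 32851 windows a start was under a PBS peak in 37% of those with 10 or more CpG sites and in 2.01% of those with fewer, and under a lysine peak in 35 and 1.51%. Of 1783 windows without a CpG, 6 had their start under a PBS peak and 3 under a lysine peak, none of them in both. The 6 were the windows of H2-Eb1 and Marchf1 and 2 windows each of Trim30a and Gm4258. Of the starts under a PBS peak, 77.3% were also under a lysine peak where the window had 10 or more CpG sites (4079 of 5279) and 50% where it had fewer (187 of 374). Of the members' starts under a PBS peak, those of Rfx5 and H2-DMa were of the first kind and those of H2-Eb1 and Marchf1 of the second, and that of Rfx5 alone was also under a lysine peak. The peak at the H2-DMa start is shared with Brd2. The lysine peak there, which ended just before the start, still covered 224 bp of the window, against 300 bp in PBS. Windows of 1 gene can overlap.

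Across the 9 genes the strong peaks were found in both libraries and most weak ones were not. Of the 12 PBS peaks 6 overlapped a lysine peak (50%), where 61.9% of the whole PBS list did. All 5 with a −log10 q of at least 5, on H2-DMa, Rfx5 and Marchf1, had a lysine partner, as did 87.4% of such peaks in the list. Of the 7 weaker ones only that on Cd74 had a partner, where 46.9% of weaker PBS peaks did. The 4 weaker peaks of 1 kb or more, on H2-Ab1, H2-Eb1 and Marchf1, had none, and in the list 69.6% of 773 such peaks were overlapped. The lengths of H2-Ab1, Cd74, Marchf1 and H2-DMa in both libraries were known when they were selected, so these counts only describe the members. Of the 7 lysine peaks 6 had a PBS partner (85.7%), against 75.3% of the lysine list, and the lower Cd74 peak had none. Peaks on the same gene are not independent, and the shares of the members were not tested against those of the lists.

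**Figure D4:**
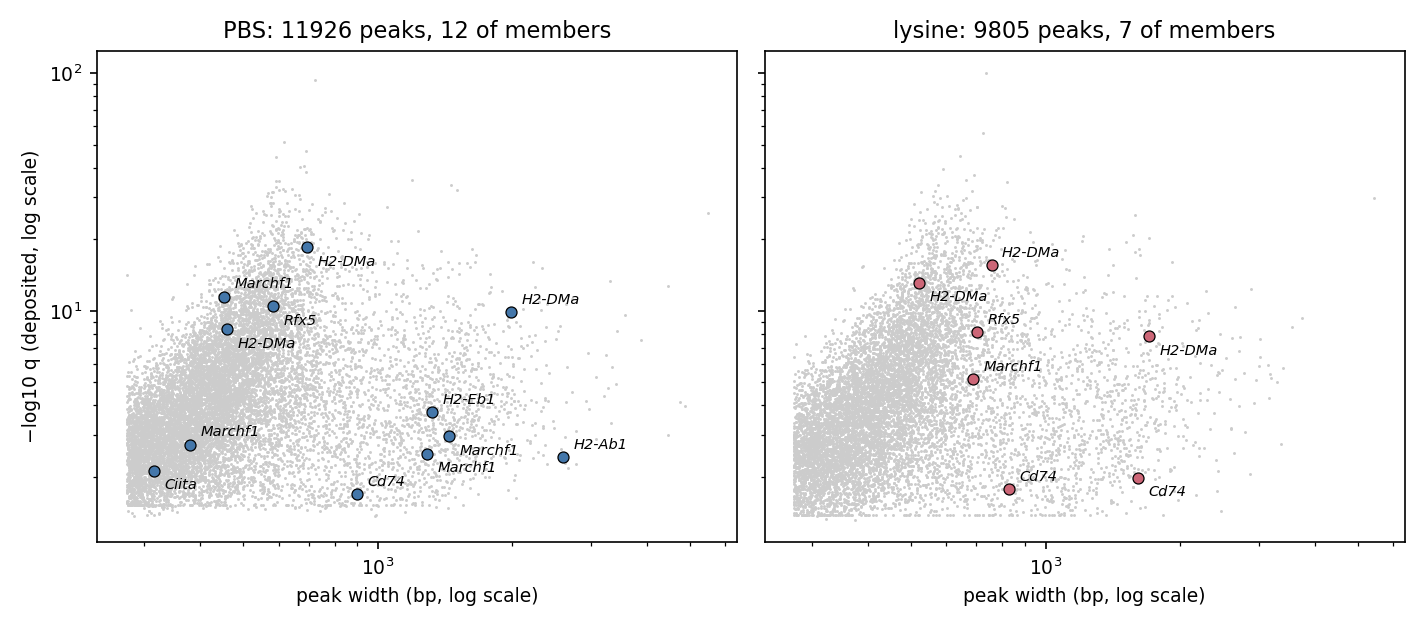
Each peak of a list (grey) is placed by its width in bp and its −log10 q, both on log axes, for PBS (left) and lysine (right), with the peaks of the 9 genes in colour. The PBS peaks on H2-Ab1, H2-Eb1 and 2 of those on Marchf1 lie to the right, at 1 kb or more, with a −log10 q under 5. These 4 overlap no lysine peak, whereas 69.6% of such peaks in the PBS list do. The peaks on H2-DMa and Rfx5 lie high in both panels.

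Among the other genes of class II presentation, equally many had a peak in each library. Of 22 listed genes 21 are protein-coding, and peaks lay on 13 of these in each library, against 36.9% (PBS) and 34% (lysine) of all protein-coding genes, over 14526 bp in PBS and 9975 bp in lysine. Lysine had the shorter covered length in 9 (24.5% of all genes), the longer in 5 (16.8%) and an equal one in 7. The median difference was 0 bp, with genes without a peak counted. It was also 0 bp over all protein-coding genes, of which 58.6% had no peak in either library, so these medians say little about genes with a peak. By at least 500 bp it was shorter in 3 (5.86% of all genes) and longer in none (2.87%). Creb1, which binds beside the X box, had 2036 bp in PBS and no lysine peak. Cd86, the costimulatory ligand that Marchf1 also targets, had 2478 bp covered with PBS and 1081 bp with lysine. Sppl2a, the protease that clears the Cd74 stub, had 1208 and 487 bp and is named after its values were seen. Ctsb, a lysosomal cathepsin, had 2260 and 1951 bp. The largest gains were those of Marchf8, a relative of Marchf1, with 0 and 298 bp, and of the cathepsin gene Ctsl, with 544 and 841 bp. The other subunits of the Rfx5 complex were alike in both libraries, Rfxap with 529 and 503 bp and Rfxank with 602 and 628 bp, the last under a peak shared with Borcs8 and Gm45929. The class II genes H2-Oa, H2-Ob, H2-DMb2 and H2-Eb2, like the pseudogene H2-Ea, had no peak in either library.

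The genes nearest to each member in covered length over both libraries, among those within 1.5 times its body length, were found by the sum of the absolute differences. For H2-Ab1 these included Vim (2159 and 321 bp in PBS and lysine) and Tmem86a (1742 and 0 bp). For H2-Eb1 they were Ppp1r3b (1335 and 0 bp), 9530068E07Rik (1276 and 0 bp) and Oasl1 (1275 and 0 bp), and for Cd74 Agpat1 (880 and 2175 bp), H2bc4 (777 and 2115 bp) and Ccng2 (1400 and 2463 bp). H2-DMa was followed by Ap3m2, Rchy1 and Hnrnpl, Rfx5 by Tatdn2, Osgep and Grpel1, and Ciita by Fcrl5, Mob1b and Dus2. Marchf1, with 148 other genes of like length, came nearest to Mctp1 (3341 and 1047 bp), and the next, Wwox (1550 and 712 bp) and Lrmda (1375 and 501 bp), were 2039 and 2379 bp away. The likeness rests on 2 libraries and on lengths alone.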

How the data were processed

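ChIP-seq for H3K79me2 gave 1 broad and 1 gapped peak list per condition, and the input libraries were not analysed here. Peaks were called per sample and not on pooled samples. Per the submitters' processing notes the build was GRCm38 and the tools were MACS2 2.1.2, Bowtie2 2.3.4.1, Trimmomatic 0.38, cutadapt 1.18, Picard, FastQC and ChIPseeker. What each tool did and with which settings is not given in the sources used here. Files without a header were read by the MACS2 layout. The deposited score of a peak was not used. The deposited fold is a linear ratio of signal to local background, and the −log10 p and −log10 q were deposited too, each averaged over the region. The lowest −log10 q was 1.37 in PBS and 1.32 in lysine. Gapped entries hold the same regions with their narrow blocks, and blocks of 1 bp, which mark a region's end, were left out.

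Genes came from RefSeq GRCm38.p6 (the table gives no strand or exons), with 2 kb either side, and promoter windows from the RefSeq table of that build. Peaks were shared if at least 1 bp overlapped. The members, lists and alternatives were chosen with earlier results of these data known. All members are named, together with genes whose bodies touch their peaks, the 3 genes nearest to each in covered length, and from the pathway list the 2 longest in covered bp and the 2 that differed most either way. No test was made, since each condition has 1 library. Markers of neutrophils had a peak on 2 of 7 genes in each library, and those of T and NK cells likewise on 2 of 7. Python 3.11.15, numpy 2.4.6, pandas 2.3.3, scipy 1.17.1 and matplotlib 3.10.9 were used. Covered lengths of 21900 genes differed from bedtools 2.31.1 in 0 cases and were tested on simulated data. One of the genes nearest to H2-Ab1 in covered length is not reported here.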

Additional observations from a re-analysis of the deposited data

How the results depend on the processing

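The covered lengths were recomputed under 9 other treatments of the peaks, and no paired analysis was possible because each condition has 1 library. Over the 9 genes together, lysine minus PBS was -5619 bp. With peaks below a −log10 q of 5 left out it turned to 196 bp, with those below a fold of 4 left out it was -2575 bp, by narrow blocks -1503 bp, against -7160 to -4403 bp under the other 6. Members with a PBS peak fell from 7 to 3 under that limit on −log10 q, to 4 under that limit on fold and to 4 with peaks of 1 kb or more alone, where those with a lysine peak fell from 4 to 2. Members covered longer in PBS went from 5 to 1 and to 3 under these limits. Marchf1 turned to 236 bp under the limit on −log10 q. H2-DMa turned to 488 bp with 5 kb either side, where another lysine peak of Brd2 entered, and to 62 bp without peaks of other genes. H2-Ab1, H2-Eb1, Cd74, Ciita and Rfx5 did not turn under any of the 9, but showed no difference under 2, 1, 3, 4 and 1 of them. Asking for 50% of a peak in place of 1 bp left 6 shared peaks in each list. The lists give no read counts, so the part of depth in peaks near the calling threshold was not tested.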

Other observations

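Genes of class I presentation lie within the same stretch of chromosome 17, and the mark was called in both libraries on Psmb9, Tap1 and Tap2 and in PBS alone on Psmb8. A peak across the ends of Psmb9, an immunoproteasome subunit, and Tap1, a peptide transporter, measured 482 bp in PBS (fold 3.69) and 336 bp in lysine (fold 3.83), the lysine peak lying within the PBS peak. Tap2, the partner of Tap1, had peaks of 371 and 297 bp in PBS and of 275 and 336 bp in lysine at the same places. Psmb8, another immunoproteasome subunit, had a peak of 1135 bp in PBS with a −log10 q of 3.32 and a narrow block of 440 bp, and no lysine peak overlapped it.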
